A study of Homo sapiens with 8 samples.

Results

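Methylation of 4 intervals on the short arm of human chromosome 11 was followed over passage in embryonic stem cells that lack the de novo DNA methyltransferases. The intervals are the H19 control region (chr11:2018812-2024740), the IGF2 somatic region (chr11:2153991-2155112), the KCNQ1OT1 control region (chr11:2719948-2722259) and the CDKN1C promoter (chr11:2904000-2909000), all in build hg19. They were set by these coordinates and not by a cut on any measured value, but were chosen with earlier results of these data known. Every CpG listed in any library within them was a member. This gave 348 CpGs of the 2975221 listed on all chromosomes, of which 62 lay in the H19 interval, 18 in the IGF2 interval, 99 in the KCNQ1OT1 interval and 169 in the CDKN1C interval. No annotation of hg19 was used, so exons and introns are not given here, and the intervals keep the names they were chosen under.

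The cells were HUES64, an established human embryonic stem cell line. All 8 libraries carried the same genotype, knockout of DNMT3A and DNMT3B (spelled DMNT3A/3B knockout in the genotype label), and were made by reduced representation bisulfite sequencing (RRBS), which reads CpG-rich fragments after unmethylated cytosines have been converted. There was 1 library at each of passages 6, 7, 8, 11, 13, 17, 27 and 28. Unedited HUES64 cells were not analysed here. Whether 1 culture or clone was sampled again and again, or separate ones, is not stated in the labels, so every spread given below may be technical. The shallowest library, passage 11, had 19898423 reads over CpGs and the deepest, passage 6, had 44599588.

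Imprinted genes are expressed mainly from the copy inherited from 1 parent, and the choice is carried by DNA methylation laid down in the germ line. In the H19/IGF2 domain the control region upstream of H19, a noncoding RNA, is methylated on the paternal copy. On the maternal copy, the protein CTCF binds it and keeps distant enhancers from IGF2, a fetal growth factor. In the neighbouring domain the control region is the promoter of KCNQ1OT1, a long noncoding RNA read antisense to KCNQ1. It is methylated on the maternal copy, and on the paternal copy the RNA silences neighbours such as CDKN1C, an inhibitor of cyclin-dependent kinases. After fertilisation such marks are copied at replication mainly by DNMT1, whereas DNMT3A and DNMT3B place methylation on unmethylated DNA. The files do not tell the parental copies apart, so methylation of 1 copy in every cell and of both copies in a part of the cells cannot be told apart here.

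Of the 4 genes, H19 had an entry among the RefSeq promoters at hand, from 250 bases before to 50 after a listed start (GRCh38.p14, chr11:2001217-2001516, minus strand). It is shown because its CpGs, in capitals, are few for a promoter. The sequence is in another build than the files, H19 has more than 1 start, and it was not placed on the CpGs measured below.
H19 promoter: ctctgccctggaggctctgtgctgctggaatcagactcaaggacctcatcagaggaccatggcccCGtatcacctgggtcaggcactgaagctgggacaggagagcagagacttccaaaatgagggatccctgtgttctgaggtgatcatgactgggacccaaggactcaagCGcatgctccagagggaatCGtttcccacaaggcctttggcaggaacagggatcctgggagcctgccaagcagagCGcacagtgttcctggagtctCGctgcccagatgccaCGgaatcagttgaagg
It holds 6 CpGs, against a median of 14 over 34796 RefSeq promoters of 300 bases. It holds no CCGG, the site cut by MspI, the enzyme in common use for RRBS (not named in the labels), while 63.1% of those promoters do (CCGG reads the same on both strands).

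The methylation level of an interval is the share of methylated reads among all reads over its CpGs. A read counts once for each CpG it covers. At the H19 interval it was 41.1, 49.0 and 45.9% at passages 6, 7 and 8, 40.6, 45.6 and 49.2% at passages 11, 13 and 17, and 40.3 and 45.0% at passages 27 and 28. High and low values alternated, and the latest libraries lay within the range of the earlier ones except that passage 27 was the lowest by a small margin. The mean was 42.7% over passages 27 and 28, against 45.3% ± 3.98 over passages 6 to 8 (SD, n = 3). Between 368 and 995 reads stood behind each level, and the 95% Wilson interval was 36.0 to 44.7% at passage 27 and 44.8 to 53.6% at passage 17. Wilson intervals cover counting error only, and neighbouring CpGs share reads, so they are too narrow.

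No trend at H19 passed the test. Per passage the level had a least-squares slope of -0.0682 ± 0.166 percentage points (SE, n = 8). Pearson's r was -0.166 (two-sided exact permutation p = 0.678 over all 40320 orders of the libraries) and Spearman's rho was -0.167 (exact permutation p = 0.703). Slopes between -0.477 and 0.342 were compatible with that test at the 95% level, which over 22 passages allows a change anywhere between -10.5 and 7.53 points. Without passages 27 and 28, r was 0.360 (exact permutation p = 0.471, n = 6). This slope is 1 of 22 that were tested, and their p-values are printed unadjusted.

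Over the same passages the autosomal mean, taken over 203892 CpGs each covered by 10 or more reads in all libraries, sloped by -0.451 ± 0.0133 points a passage (SE, n = 8; exact permutation p = 2.48e-05, the smallest that 8 libraries allow). The level at H19 minus that mean had a slope of 0.383 ± 0.158 (exact permutation p = 0.0529, n = 8), which missed the threshold of 0.05, with an interval of -0.00761 to 0.773. Spearman's rho, not the planned test of this difference, was 0.810 (exact permutation p = 0.0218, n = 8). With autosomal CpGs of at least 5 reads rho was 0.690 (exact permutation p = 0.0694, n = 8). The same difference passed when each level was first divided by its own mean over passages 6 to 8 (exact permutation p = 0.0356, n = 8), and did not when only CpGs of at least 10 reads were used (slope 0.131, exact permutation p = 0.694, n = 8).

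**Figure D1:**
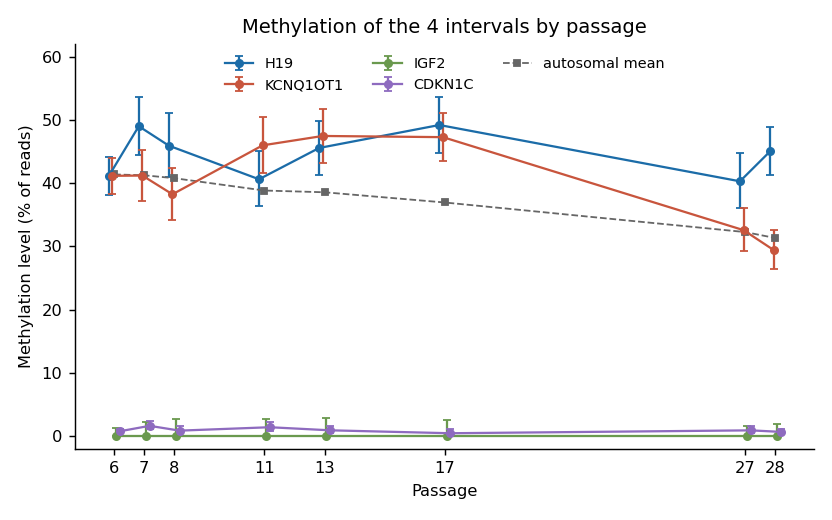
Methylation level (% of reads) of the 4 intervals against passage, 1 library per point, with 95% Wilson intervals as bars and the autosomal mean as a dashed line; points are shifted slightly sideways. H19 stays between 40.3 and 49.2%, KCNQ1OT1 is at 32.6 and 29.4% at passages 27 and 28, and IGF2 and CDKN1C lie at the floor throughout.

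H19 differed from its immediate surroundings, pooled over both sides, in its course over passage. The 243 CpGs within 10 kb on either side stood at 47.0, 42.9 and 42.2% at passages 6, 7 and 8, 33.4, 36.1 and 33.5% at passages 11, 13 and 17, and 16.9 and 17.2% at passages 27 and 28. Pooled, these surroundings started at the level of the interval itself and ended far under it. Their sides were unlike in the tiles described below. At lower coordinates, tiles of 1000 bases averaged 10.7 to 45.5% at passages 6 to 8 and 0.205 to 3.32% at passages 27 and 28. The nearest tested tiles at higher coordinates averaged 86.7 to 93.4% at passages 6 to 8 and 83.8 to 93.2% at passages 27 and 28. Farther out on that side, tiles at 81.8 and 55.6% fell to 55.0 and 3.18%. The H19 level minus that of either side alone was not tested. The H19 level minus that of its surroundings rose by 1.20 ± 0.151 points a passage (SE, n = 8; exact permutation p = 4.96e-05), with an interval of 0.858 to 1.58. Over passages 6 to 17 alone the slope of the difference was 1.51 (exact permutation p = 0.0153, n = 6).

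The borders of the interval were followed in tiles. Reads of all listed CpGs were summed over tiles of 1000 bases, and methylated against unmethylated reads were regressed on passage in a quasi-binomial model. A tile was called at a Benjamini-Hochberg adjusted p under 0.05, over all tiles of the genome, with a fitted change of at least 10 points between passages 6 and 28. By this rule 28.7% of tiles were called lower with passage and 0.104% higher. Fits to fewer libraries were extended along the fitted curve to passages 6 and 28 for that change. On the side of lower coordinates, toward which H19 is transcribed, 8 of 8 tested tiles within 10 kb were called lower, with fitted changes from -51.3 to -10.7 points and a median of -37.1.

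The tile chr11:2018001-2019000 touches the interval's start, but its 18 CpGs all lie below the interval's first listed CpG (chr11:2019090) and most of its length is outside. Its level was 31.9, 24.2 and 29.5% at passages 6, 7 and 8, 18.8, 23.8 and 16.1% at passages 11, 13 and 17, and 5.42 and 4.23% at passages 27 and 28. The latest libraries lay under all others, at a mean of 4.83%, against 28.5% ± 3.94 over passages 6 to 8 (SD, n = 3). The fitted change was -25.7 points (quasi-binomial F test, adjusted p = 6.38e-06). With passages 6 to 17 alone, extended to passage 28, it was -21.5 points and not called (adjusted p = 0.0674).

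Inside the interval no tile was called. The first, chr11:2019001-2020000, averaged 31.5% over passages 27 and 28, against 44.7% ± 3.39 over passages 6 to 8 (SD, n = 3; fitted change -11.6 points, adjusted p = 0.109). In the stricter table of better covered CpGs, described below, the same tile kept 3 CpGs and averaged 39.7% over passages 27 and 28, against 52.9% ± 16.8 over passages 6 to 8 (SD, n = 3; -8.09 points, adjusted p = 0.546). The next, chr11:2020001-2021000, averaged 35.3% over passages 27 and 28, against 48.3% ± 11.8 over passages 6 to 8 (SD, n = 3; -6.76 points, adjusted p = 0.492). The third, chr11:2021001-2022000, held 27 CpGs and averaged 49.9% over passages 27 and 28, against 45.4% ± 4.82 over passages 6 to 8 (SD, n = 3; 7.67 points, adjusted p = 0.155). The sign of the fitted change thus differed along the interval, but differences between tiles were not tested. Fitted to passages 6 to 17 alone, the third tile was called higher (adjusted p = 0.0418). Its change, extended to passage 28, was 26.8 points. The last tile with enough reads, chr11:2022001-2023000, held 4 CpGs and had a fitted change of 3.85 points (adjusted p = 0.849). Toward the end of the interval at higher coordinates reads were too few for the fit. There, over the 5 CpGs of chr11:2023312-2023811, 15.8% of 19 reads were methylated at passages 27 and 28 (95% Wilson interval 5.52 to 37.6%), against 65.2% of 46 reads at passages 6 to 8 (50.8 to 77.3%). Reads were counted anew at each CpG, so these intervals are too narrow. At chr11:2023760 passage 8 had 1 read, passage 27 had 2 and passage 28 had 3. The CpGs chr11:2023497 and chr11:2023521, never read as methylated, each had 1 read at passage 27 and at passage 28. Of passages 6 to 8, only passage 6 read the first of them and none read the second. That window was singled out after its values were seen, held as few as 3 counts in a library, and was not tested.

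On the side of higher coordinates 2 of 5 tested tiles within 10 kb were called lower, beside the 28.7% across the genome. Beyond a tile near 0, the tiles nearest the interval there were highly methylated throughout: chr11:2026001-2027000 averaged 86.1% over passages 27 and 28 and 90.3% over passages 6 to 8 (fitted change -3.85 points, adjusted p = 0.370). Farther out, chr11:2033001-2034000 averaged 3.18% over passages 27 and 28, against 55.6% over passages 6 to 8 (fitted change -54.2 points, adjusted p = 2.95e-07).

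**Figure D2:**
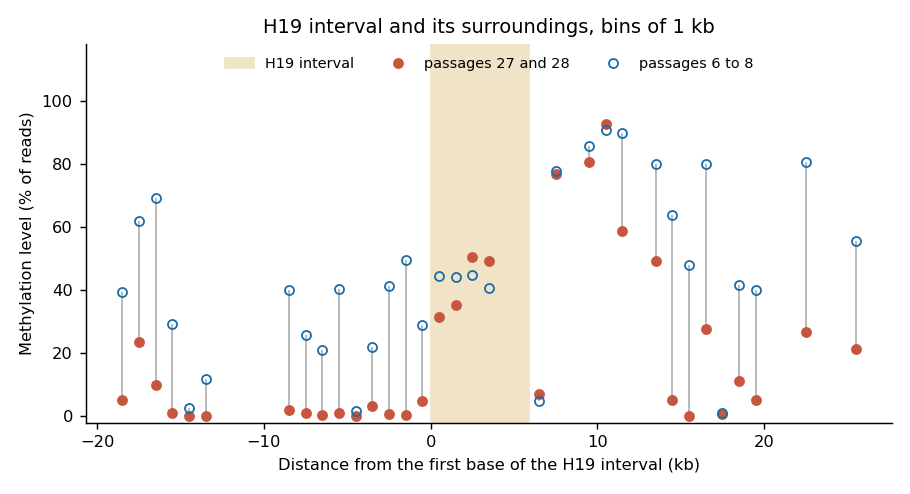
Methylation level (% of pooled reads) in bins of 1 kb with at least 20 reads in every library, against distance from the first base of the H19 interval, shaded, with passages 27 and 28 as filled points and passages 6 to 8 as open points joined by a line. Within 10 kb left of the interval the filled points lie close to 0, inside it, where bins reach that depth, both kinds stay between about 30 and 50%, and just right of it some bins stay highly methylated.

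Single CpGs of the H19 interval were thinly covered, and 6 of 62 had at least 10 reads in every library. Of these, 5 were lower and 1 was higher at passages 27 and 28 than over passages 6 to 8, by -14.3 to 3.76 points, with no test. The largest fall was at chr11:2019143, which averaged 22.1% over passages 27 and 28, against 36.4% ± 12.0 over passages 6 to 8 (SD, n = 3). The smallest change was at chr11:2022064, at 33.3% over passages 27 and 28, against 29.5% ± 17.2 over passages 6 to 8 (SD, n = 3). The highest late level was at chr11:2019264, at 52.7% over passages 27 and 28, against 62.5% ± 21.0 over passages 6 to 8 (SD, n = 3). Over the whole interval 2 of 62 CpGs were never read as methylated.

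The IGF2 interval was unmethylated. None of the 1454 reads over its 18 CpGs was methylated in any library, at 133 to 292 reads per library. A count of 0 allows a level of up to 0.206% over all reads, and of up to 2.26% in the shallowest library, passage 13. Without any methylated read the interval could not be fitted, and its chosen CpG, chr11:2154747, had 0 methylated of 178 reads.

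Around IGF2 the 249 CpGs within 10 kb averaged 4.72% over passages 27 and 28, against 8.96% ± 1.58 over passages 6 to 8 (SD, n = 3). Of the tiles on the side of lower coordinates, 3 of 4 tested were called lower, beside 28.7% of tiles across the genome. The one nearest the interval, chr11:2151001-2152000, averaged 23.5% over passages 27 and 28, against 71.0% over passages 6 to 8 (fitted change -50.7 points, adjusted p = 2.91e-06). On the other side 1 tile was tested and not called (0.254 points, adjusted p = 0.482).

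The KCNQ1OT1 interval was also partly methylated, and was lowest in the latest libraries. Its level was 41.2, 41.2 and 38.2% at passages 6, 7 and 8, 46.0, 47.5 and 47.3% at passages 11, 13 and 17, and 32.6 and 29.4% at passages 27 and 28. The latest libraries lay under all others and those of passages 11 to 17 above all others. The mean was 31.0% over passages 27 and 28 and 46.9% ± 0.808 over passages 11 to 17 (SD, n = 3), against 40.2% ± 1.70 over passages 6 to 8 (SD, n = 3). Reads numbered 472 to 1142 per library, and the 95% Wilson interval was 29.3 to 36.0% at passage 27 and 26.4 to 32.6% at passage 28.

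The linear trend of KCNQ1OT1 did not pass its test. It sloped by -0.486 ± 0.245 points a passage (SE, n = 8). Pearson's r was -0.629 (exact permutation p = 0.0942) and Spearman's rho was -0.262 (exact permutation p = 0.536), and the slope's interval was -1.10 to 0.118. Over passages 6 to 17 alone the slope was 0.772 with r = 0.836 (exact permutation p = 0.0403, n = 6), so a negative slope rests on passages 27 and 28. The level minus the autosomal mean had a slope of -0.0344 (exact permutation p = 0.885, n = 8), with an interval of -0.639 to 0.565. The H19 level minus the KCNQ1OT1 level had a slope of 0.417 ± 0.267 (SE; exact permutation p = 0.176, n = 8), so a difference between both control regions in their change with passage was not shown. It was 1 of 6 pairs of intervals computed, and those with IGF2 or CDKN1C only mirror the other interval.

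The fit across the genome gave KCNQ1OT1 a call that the trend test did not. It was run on tiles with at least 3 CpGs of 10 reads in every library together with the 4 intervals, and called 47.6% of 11746 tested features lower with passage and 0.179% higher. Of the 3 intervals that could be tested, 1 was called lower and 0 higher. CDKN1C, at 1.63% or less in every library, could not have shown the fall of 10 points that a lower call needs. KCNQ1OT1 had a fitted change of -10.7 points (adjusted p = 0.0200), while H19 had one of 0.0517 points (adjusted p = 0.990). The median was -12.2 over all features of this fit. With tiles of all listed CpGs, summed as the intervals are, it was -7.96 and 28.7% were called lower. The KCNQ1OT1 call was lost without the passage 27 library (-9.71 points, adjusted p = 0.0855) and without the passage 28 library (-6.18 points, adjusted p = 0.282). Fitted to passages 6 to 17 alone and extended to passage 28, the change was 15.9 points (adjusted p = 0.0576).

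Along the KCNQ1OT1 interval, windows of 500 bases lay far apart at late passages. The first window, chr11:2719948-2720447, held 51.2% of pooled reads methylated at passages 27 and 28, against 45.3% at passages 6 to 8. The second held 47.4% at passages 27 and 28, against 51.7% at passages 6 to 8. The third held 24.2% at passages 27 and 28, against 35.3% at passages 6 to 8. The next, up to 2721947, held 20.6% at passages 27 and 28, against 38.0% at passages 6 to 8. In the last, chr11:2721948-2722259, 1 of 73 reads (1.37%, 95% Wilson interval 0.242 to 7.36%) was methylated at passages 27 and 28, against 38.0% of 142 reads at passages 6 to 8. Passage 27 gave 60 of the 73 reads and passage 28 gave 13. The CpG chr11:2722119, named again below, gave 18 and 10 of them. Neighbouring CpGs share reads here too, so that Wilson interval is too narrow. At passage 27 each listed CpG from chr11:2721961 to chr11:2721982 had 5 reads. At passages 6, 7 and 8 this window stood at 31.7, 69.2 and 18.6%. With reads of passages 6 to 8 pooled, the windows thus lay between 35.3 and 51.7%. Pooled late levels were in order along the interval, with the lowest at its higher-coordinate border. At passage 27 alone the first window (45.6%) lay under the second (48.0%).

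Tiles of all listed CpGs gave the tests available for this. The tile chr11:2720001-2721000 was not called, at 46.2% over passages 27 and 28, against 47.5% ± 1.74 over passages 6 to 8 (SD, n = 3; fitted change -1.12 points, adjusted p = 0.887). The tile chr11:2721001-2722000, with 62 CpGs, read 38.0, 37.9 and 31.9% at passages 6, 7 and 8, 58.7, 39.1 and 54.1% at passages 11, 13 and 17, and 24.2 and 19.2% at passages 27 and 28. It was called lower (-16.7 points, adjusted p = 0.0481). That call was lost without passage 7 (-17.8 points, adjusted p = 0.0648), passage 13 (-16.6 points, adjusted p = 0.0520), passage 27 (-15.1 points, adjusted p = 0.169) or passage 28 (-8.65 points, adjusted p = 0.503). Fitted to passages 6 to 17 alone, the tile was called higher (adjusted p = 0.0420). Its change, extended to passage 28, was 31.3 points. The difference between these tiles was not tested.

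**Figure D3:**
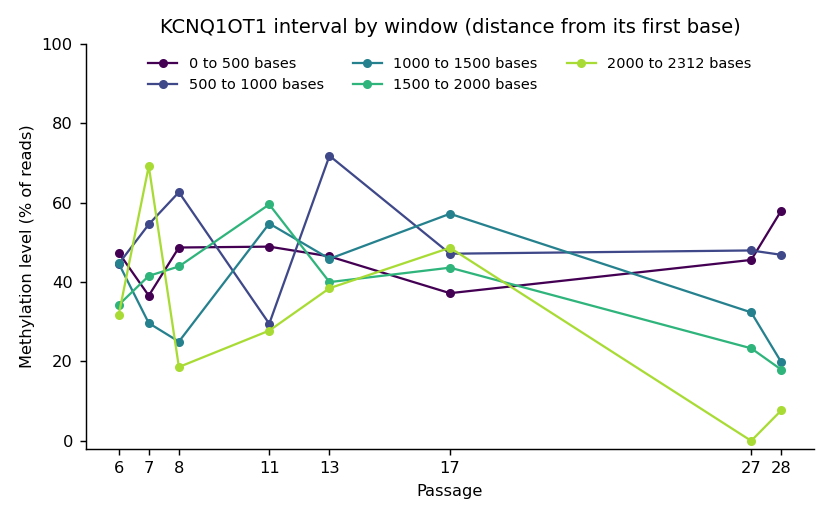
Methylation level (% of reads) of 5 successive windows of the KCNQ1OT1 interval against passage, 1 line per window and 1 library per point. At passages 27 and 28 the windows within the first 1000 bases stay between 45.6 and 58.0%. The window farthest along the interval is at 0 and 7.69%, from 60 and 13 reads, a read counted at each CpG it covers.

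Of 99 KCNQ1OT1 CpGs, 3 had at least 10 reads in every library. The largest fall was at chr11:2722119, the last CpG of the interval, with 37.5, 50 and 15.8% at passages 6, 7 and 8, 17.4, 30 and 42.1% at passages 11, 13 and 17, and 0% at both passages 27 and 28. It had 10 to 23 reads per library, and its spread before passage 27 was wide. At chr11:2720087, near the start, the level averaged 47.1% over passages 27 and 28, against 32.3% ± 9.78 over passages 6 to 8 (SD, n = 3). Beyond the interval, 6 CpGs were listed within 10 kb, and none of their reads was methylated in any library, so these surroundings could not show a loss. Within 20 kb, 28 CpGs averaged 30.9% over passages 27 and 28, against 52.8% ± 6.20 over passages 6 to 8 (SD, n = 3), and the slope of KCNQ1OT1 minus them was 0.606 (exact permutation p = 0.194, n = 8).

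CDKN1C, which the KCNQ1OT1 region controls in cis, kept a promoter interval with hardly any methylation. Its level was 0.763, 1.63 and 0.870% at passages 6, 7 and 8, 1.41, 0.921 and 0.459% at passages 11, 13 and 17, and 0.914 and 0.673% at passages 27 and 28, from 1065 to 2620 reads per library. No order by passage was visible, and its slope, -0.0188 ± 0.0163 points a passage (SE, n = 8), missed the threshold (exact permutation p = 0.286). The fit across the genome gave -0.304 points (adjusted p = 0.453). Of its tiles, chr11:2905001-2906000 with 62 CpGs averaged 0.281% over passages 27 and 28, against 0.293% ± 0.144 over passages 6 to 8 (SD, n = 3; fitted change -0.106 points, adjusted p = 0.812). In chr11:2906001-2907000, with 57 CpGs, the mean was 1.38% over passages 27 and 28, against 0.908% ± 0.386 over passages 6 to 8 (SD, n = 3; 0.587 points, adjusted p = 0.399). Of 169 CpGs, 153 were never read as methylated, and 49 of the 110 methylated reads fell on 1 CpG, chr11:2908835, which had 111 reads and was singled out after its values were seen. That CpG stood at 36, 70.8 and 30% at passages 6, 7 and 8, 52.9, 71.4 and 16.7% at passages 11, 13 and 17, and 0 and 33.3% at passages 27 and 28, from 4 to 25 reads per library. Of the 6 CpGs with 10 or more reads in all libraries, 5 were at 0 in the early and late libraries alike, among them chr11:2905112, and chr11:2908987 had 1 methylated of 164 reads.

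The 54 CpGs within 10 kb of CDKN1C averaged 29.5% over passages 27 and 28, against 47.1% ± 2.53 over passages 6 to 8 (SD, n = 3). Called lower were 2 of 3 tested tiles on the side of lower coordinates and 1 of 2 on the other, beside 28.7% of tiles across the genome. The tile chr11:2901001-2902000 averaged 9.39% over passages 27 and 28, against 75.4% over passages 6 to 8 (fitted change -67.5 points, adjusted p = 2.02e-05). Between the 4 intervals as a whole, 3728 CpGs averaged 25.5% over passages 27 and 28, against 43.2% ± 1.31 over passages 6 to 8 (SD, n = 3), and sloped by -0.854 ± 0.0384 points a passage (SE, n = 8; exact permutation p = 4.96e-05).

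Tiles that started at a like level give the setting for both control regions. Among the 1997 tested tiles that averaged between 30 and 60% over passages 6 to 8, 72.9% were called lower. Their median of passages 27 and 28 minus passages 6 to 8 was -30.6 points. H19 differed by -2.69 points, and 8.66% of these tiles were at or above that value. KCNQ1OT1 differed by -9.20 points, and 17.1% of the tiles were at or above it. These shares are a description with no test, and neither value lay outside the range of the tiles. The 1997 tiles hold only CpGs of at least 10 reads in every library, whereas the intervals sum all listed CpGs. Over the 16222 tested tiles of all listed CpGs in that starting range, 60.5% were called lower, and the median difference was -24.0 points. Shares at or above the intervals' values were not computed for those tiles.

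**Figure D4:**
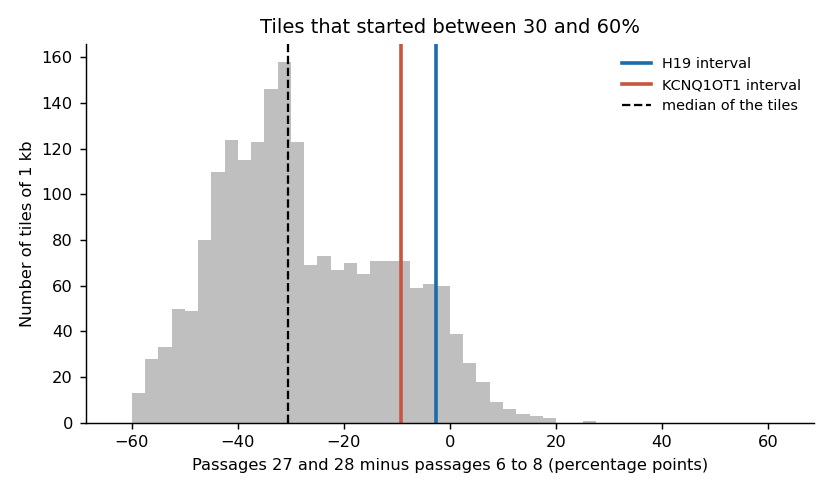
Number of tiles of 1 kb against the mean of passages 27 and 28 minus the mean of passages 6 to 8 (percentage points). Shown are the 1997 tiles that started between 30 and 60%. They hold only CpGs of at least 10 reads in every library, while both intervals sum all listed CpGs. Solid lines mark H19 at -2.69 and KCNQ1OT1 at -9.20 points, both right of the median of the tiles at -30.6 points (dashed).

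Other imprinted regions were mixed. For 14 further regions, whose hg19 intervals were written from memory of published lists and not checked against an annotation, 13 could be tested in the same fit. Of these, 8 were called lower, 0 higher and 5 not called, beside 47.6% of all features called lower and 0.179% called higher. Their median fitted change was -11.7 points, against -12.2 over all features. Tiles of that fit hold only CpGs of at least 10 reads in every library, while these regions sum all listed CpGs. With tiles of all listed CpGs, 28.7% of features were called lower and the median was -7.96. The SNRPN control region, which governs the Prader-Willi domain, averaged 32.3% over passages 27 and 28, against 24.8% ± 3.92 over passages 6 to 8 (SD, n = 3; fitted change 7.82 points, adjusted p = 0.218). MEST averaged 30.3% over passages 27 and 28, against 39.3% ± 4.12 over passages 6 to 8 (SD, n = 3; -10.6 points, adjusted p = 0.0214). PEG3 started high for a region methylated on 1 parental copy, at 82.2% over passages 27 and 28, against 95.2% ± 2.14 over passages 6 to 8 (SD, n = 3; -14.2 points, adjusted p = 1.13e-04). The list ranged in size of change from ZNF331 at -0.554 points (adjusted p = 0.953) to NNAT at -65.8 points (adjusted p = 8.44e-06), which averaged 20.4% over passages 27 and 28, against 84.0% ± 5.39 over passages 6 to 8 (SD, n = 3).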

How the data were processed

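RRBS data of 8 HUES64 libraries, 1 per passage, were grouped by the labelled passage. Each deposited file lists CpGs of build hg19, per the submitters' processing notes, with methylated and total read counts per CpG as the authors deposited them. The deposited score beside them equals 1000 times the methylated share within 0.5 and was read only for that check. What aligned the reads, called methylation, filtered CpGs or removed duplicates is not given in the sources used here. Duplicates would make counting intervals too narrow.

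Reads were summed over each interval. Median coverage per CpG was 13 at passage 6 and 6 to 8 elsewhere. Slopes on passage were tested by two-sided exact permutation of Pearson's r (Python 3.11.15, numpy 2.4.6, scipy 1.17.1), and their 95% intervals hold the slopes that this test does not reject. Tiles and intervals were fitted by quasi-binomial regression (R 4.3.3), with dispersion moderated by squeezeVar of limma 3.58.1 and kept at or above 1, an F test and Benjamini-Hochberg adjustment over all features tested. A feature needed 10 methylated and 10 unmethylated reads over all libraries. The fit was tested on simulated data.

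The second table, of tiles over all listed CpGs, needed 3 CpGs and 20 reads in every library and was chosen after seeing the data. The limit of a count of 0 is 3 counts. Named were all 4 intervals, every tested tile overlapping one, 3 single CpGs per interval (largest fall, smallest change, highest late level among those of at least 10 reads in every library), and of the other imprinted regions SNRPN, MEST, PEG3 and those of the largest and smallest change. Tiles beside an interval and the windows are named outside that rule. The intervals, members and lists were chosen with earlier results of these data known. Alternatives were coverage minimums, CpG weights and spacing, other surroundings, other fits, omission of each library and passages 6 to 17 alone.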

Additional observations from a re-analysis of the deposited data

How the results depend on the processing

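No paired analysis was possible because there is a single library at every passage. The H19 trend was not past its threshold in any setting run, and its sign is not fixed: the slope was 0.319 over passages 6 to 17 alone and -0.158 to 0.0694 with 1 library left out. It was -0.320 with CpGs of at least 10 reads, and with equal weight of CpGs -0.255 over those and -0.277 over the CpGs listed in every library (exact permutation p = 0.379, 0.573 and 0.136, n = 8). Its fitted change was -1.50 points with limma on logit levels and -3.07 to 2.57 with 1 library left out. H19 minus the autosomal mean passed on relative levels (0.946) and without passage 7 or passage 27, within 0.297 to 0.528 over the omissions. H19 minus its surroundings passed under every alternative run, with slopes of 1.06 to 1.30 over the omissions. The KCNQ1OT1 slope was 0.772 over passages 6 to 17 alone and -0.571 to -0.275 over the omissions. It passed in 2 alternatives chosen after seeing the data, equal weight of CpGs listed in every library (-0.651, exact permutation p = 0.0325, n = 8) and CpGs at least 100 bases apart (-0.324, exact permutation p = 0.0326, n = 8). Its difference from the autosomal mean sloped by 0.00560 with CpGs of at least 10 reads and by -0.122 to 0.162 over the omissions. With passages 6 to 17 alone that slope was 1.20 and passed (exact permutation p = 0.0181, n = 6). H19 minus KCNQ1OT1 was -0.453 over passages 6 to 17 alone. KCNQ1OT1 minus its surroundings was 0.606 at 20 kb, 0.368 against all CpGs between the intervals and 0.772 over passages 6 to 17 alone. The fitted change of KCNQ1OT1 was -13.4 to -6.18 points over the omissions and 15.9 with passages 6 to 17 alone, extended to passage 28. Its call was also lost with no minimum of reads of each state (-10.7 points, adjusted p = 0.127), with limma (-11.1 points, adjusted p = 0.394) and at a minimum change of 20 points (-10.7). The CDKN1C slope was 0.0165 with CpGs of at least 5 reads and -0.135 with CpGs at least 100 bases apart (exact permutation p = 0.145, n = 8), whose levels averaged 0.962% over passages 27 and 28, against 3.48% ± 3.03 over passages 6 to 8 (SD, n = 3).

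Features called lower numbered 5590, and 26588 at 5 reads, 162 at 20 reads, 2181 over passages 6 to 17 alone and 42183 over all listed CpGs, where other numbers of features were tested. Features called higher numbered 21, and 130 at 5 reads, 0 at 20 reads (where the quasi-binomial test gave 364 features an unadjusted p under 0.05 in either direction), 8 with limma, 7 at 20 points and 153 over all listed CpGs. Among tiles of the intervals, the sign turned over passages 6 to 17 alone at 2905001 (0.0806) and 2906001 (-0.490) in CDKN1C, 2022001 (-19.99) in H19 and 2721001 (31.3) in KCNQ1OT1. With 1 library left out the first ranged over -0.189 to 0.0527, the third over -5.96 to 15.1 and the last over -21.2 to -8.65. The cause was not tested in any of these cases. Precision is limited by the lack of replicate libraries, by depth, since few CpGs had 10 reads in every library, and by reads shared between neighbouring CpGs.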
